A study of Mus musculus with 8 samples.

Results

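The Eph receptors, ephrins, Slits, Robos, netrins and netrin receptors were followed on arrays of mouse MGE that lacked or retained Nkx2-1. The list holds 37 genes defined by their families. Of these, 35 were matched to a probe by accession, out of 17178 genes matched in all, and 34 had a probe that could be tested, out of 14449. Efna3 and Robo3 were not matched to a probe, and Epha6 was too close to background to be tested.

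These families steer growing axons and migrating neurons. Eph receptors are tyrosine kinases that bind membrane-held ephrins on neighbouring cells, so signals pass in both directions at the contact. A-class receptors mainly bind the lipid-anchored ephrin-A ligands and B-class receptors mainly bind the transmembrane ephrin-B ligands. Slits are secreted repellents read by Robo receptors, and netrin attracts through DCC and repels through Unc5 receptors. In the ventral telencephalon these cues are known to act on interneurons that leave the MGE and on the axons that cross it. NKX2-1 is the homeodomain transcription factor that gives the MGE its identity. The study lists ephrin receptor activity among the functions of genes near regulatory elements that lose activity without NKX2-1, and Efnb1 and Efnb2 among genes near elements that gain activity and hold MEIS2 motifs. The question here is whether transcripts of these families differed between WT and mutant MGE.

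MGE was dissected at embryonic day 13.5 from mice labelled C57BL/6, and 4 WT and 4 Nkx2-1cKO samples were each hybridised to 1 single-colour Agilent array. The labels give the WT samples as Nkx2-1flox/+;Olig2tva-cre- and the mutant samples as Nkx2-1flox/+;Olig2tva-cre+, so both groups carry a floxed allele and only the mutants carry the Cre, which is driven from Olig2 regulatory sequence. The labels therefore read as heterozygous, whereas the study's methods name a homozygous floxed strain together with the Cre and a red reporter strain. The sources do not state whether samples came from separate animals or litters, so the p-values measure the spread among these arrays, which may be technical.

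The arrays lay on 2 slides, each with 2 WT and 2 Nkx2-1cKO samples. All signals below are on a log2 scale on which the 75th percentile of an array is 0, so a value belongs to its own probe and is not a measure of one gene against another. The log2 signal of Nkx2-1 itself averaged 1.87 ± 0.06 (SD) over the 4 WT arrays and -4.46 ± 0.19 (SD) over the 4 mutant arrays, which left 1.24% of the WT signal (limma, adjusted p = 4.77e-09). Of the markers listed for the MGE and its neurons 8 of 10 were called lower, and of those listed for the LGE and CGE 7 of 14 were called higher. The LGE and CGE markers called were Meis2, Isl1, Ebf1, Foxp2, Zfp503, Tle4 and Rarb. Those not called were Foxp1, Gsx2, Sp8, Nr2f1, Nr2f2, Prox1 and Ikzf1. Of the oligodendrocyte precursor markers 2 of 3 tested were called lower (Olig1 and Pdgfra), and of those for septum, preoptic area and diencephalon 1 of 8 was called higher (Dbx1). The lists for GABAergic subpallium, pallium, dividing progenitors, radial glia, early neurons, endothelium, mural and mesenchymal cells, microglia and erythroid cells had 0 markers past the threshold in limma. In these lists 10 of 66 had an unadjusted p under 0.05 in limma, against 9.51% of all genes. Of those 10, 5 were among the 8 GABAergic subpallium markers, 3 with higher and 2 with lower mutant means. The summed linear level of the mural and mesenchymal markers spanned 2.35 to 8.90 in WT and 2.53 to 3.07 in the mutants. A spot left out as an outlier adds nothing to such a sum. The septum, preoptic area and diencephalon list had a median log2 difference of -0.27, with higher mutant means in 3 of its 8 tested markers (Dbx1, Hmx2 and Hmx3). At an unadjusted p under 0.05 in limma, 1 of its markers was higher and 2 were lower in the mutants. The part of such neighbouring tissue in the values below was not tested. Each array had between 71.1% and 79.5% of its probes well above background. WT replicate 1 stood apart at the dim end, where its lowest signal counted as well above background was -5.64 against -7.15 to -6.75 on the other 7 arrays.

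No guidance gene passed an adjusted p of 0.05 in limma, among 34 tested. Over all genes with a tested probe 1.34% were called, 0.491% higher and 0.851% lower in the Nkx2-1cKO. At an unadjusted p under 0.05 there were 10 guidance genes (29.4%), 6 with a higher mean (Ephb1, Efnb1, Efnb2, Robo1, Ntn1 and Unc5a) and 4 with a lower mean (Ephb3, Slit2, Unc5c and Unc5d), against 9.51% of all genes (4.28% higher and 5.23% lower). In 6 guidance genes (17.6%) every measured array of one group lay beyond every measured array of the other, against 6.94% of all genes (2.91% higher and 4.03% lower). These were Ephb1 and Efnb2 on the higher side and Ephb3, Unc5d, Epha10 and Efna1 on the lower side. For Efnb2 only 3 WT arrays had a value on this probe. The median size of the log2 difference, regardless of direction, was 0.22 over the guidance genes and 0.13 over all genes. The signed median was -0.04 against -0.00, with lower means in 21 of 34 guidance genes (61.8%) and in 50.4% of all genes.

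The largest difference in either direction was 0.71 on the log2 scale. Of the 34 intervals at 95% confidence, not adjusted for the number of genes, 17 lay within 0.5 of zero on the log2 scale and 31 lay within 1. Because whole dissected tissue was measured, fewer cells of a type and less RNA per cell cannot be told apart.

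**Figure D1:**
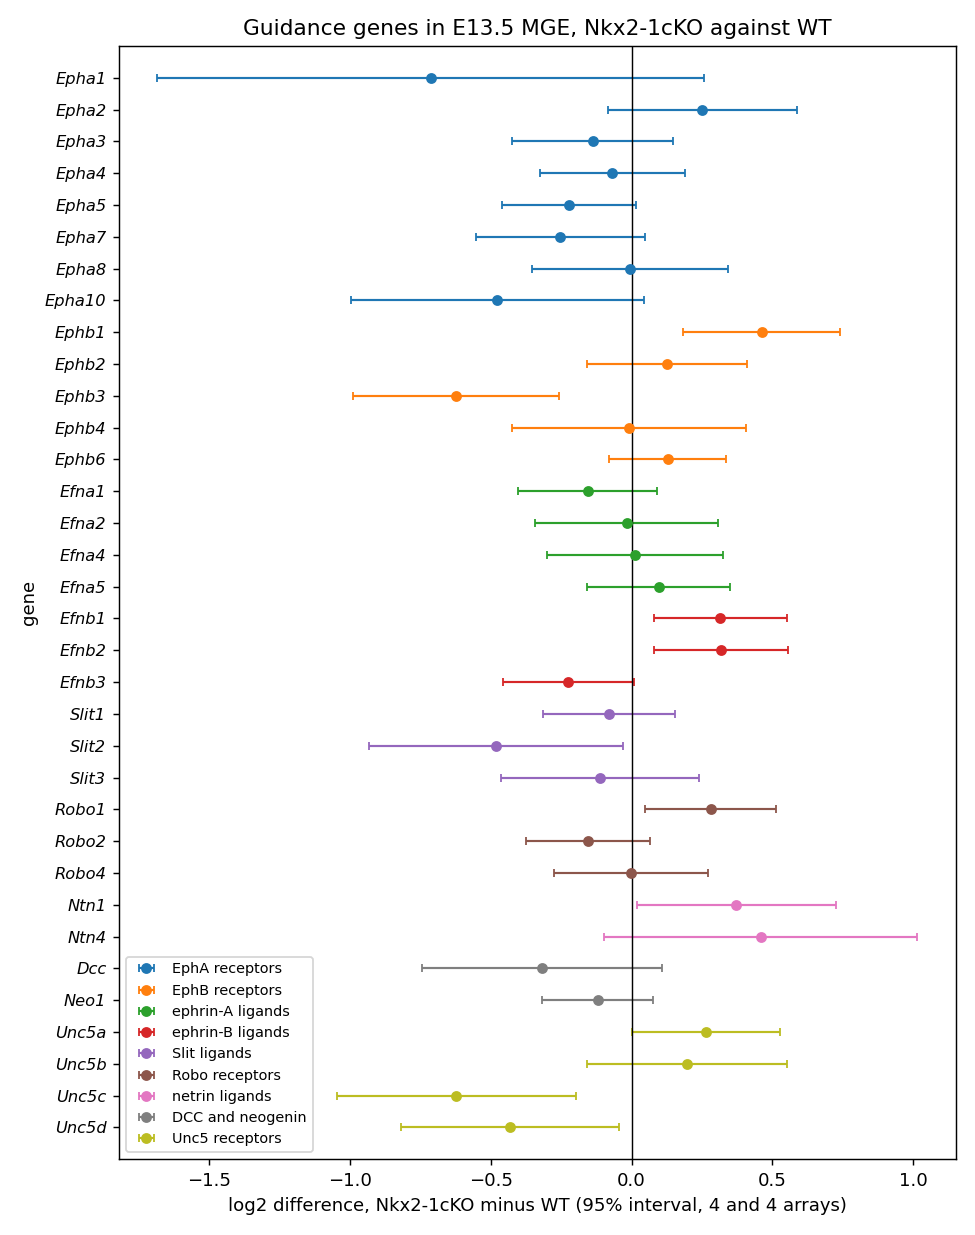
The horizontal axis is the log2 difference of each gene, Nkx2-1cKO minus WT, and each row is 1 of the 34 tested guidance genes, coloured by family. Points are limma estimates from 4 arrays a group (3 WT arrays for Efnb2) and bars are 95% intervals. The bars of 10 genes leave out zero, and the point farthest to the right is that of Ephb1 at 0.46.

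Among the EphB receptors, Ephb3 and Ephb1 had means that differed in opposite directions. Both encode receptors for ephrin-B ligands that are used in axon repulsion and boundary formation. Ephb3 had log2 signals of 0.64, 1.11, 0.58 and 1.03 on WT arrays 1 to 4 and of 0.31, 0.02, 0.55 and -0.01 on Nkx2-1cKO arrays 1 to 4. The highest mutant array was just under the lowest WT array, so the groups did not overlap (p = 0.0286 by exact permutation, two-sided, which is the lowest possible with 4 against 4). The log2 difference was -0.62 (SE 0.16, 95% interval -0.99 to -0.26), or 65.0% of WT, with an adjusted p of 0.184 in limma.

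The spread within each Ephb3 group followed the slide. On slide 1 the WT arrays were 0.64 and 0.58 and the mutant arrays 0.02 and -0.01, and on slide 2 the WT arrays were 1.11 and 1.03 and the mutant arrays 0.31 and 0.55. Within slide 1 the groups differed by -0.61 and within slide 2 by -0.64, nearly the same size. With slide as a block in limma the standard error was 0.07 and the adjusted p was 0.00312, so Ephb3 passed the threshold in that fit, as it did after normexp background correction (log2 difference -0.63, adjusted p = 0.028). In the slide-blocked fit 1.09% of all genes were called lower. Centring arrays on their median gave -0.50 with an adjusted p of 0.648, and over the 16 alternatives the log2 difference of Ephb3 ranged from -0.73 to -0.50 and its adjusted p in limma from 0.00312 to 0.699.

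Ephb1 had log2 signals of 1.48, 1.31, 1.48 and 0.96 in WT and 1.73, 1.69, 1.72 and 1.94 in the Nkx2-1cKO. The mutant arrays all exceeded the WT arrays (p = 0.0286 by exact permutation, two-sided), and WT replicate 4 was the lowest of all. The means differed by 0.46 on the log2 scale (SE 0.12, 95% interval 0.18 to 0.74), with an adjusted p of 0.203 in limma, which ranged from 0.071 (slide as a block) to 0.695 over the alternatives. It was 0.34 on slide 1 and 0.59 on slide 2.

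The other B-class receptors showed smaller differences. Ephb2, a receptor used in axon crossing and at synapses, was measured by 2 probes, with a log2 difference of 0.13 on the brighter (SE 0.13) and -0.03 on the other (SE 0.12). It was the only guidance gene whose probes differed in sign. Ephb4, which marks venous endothelium, had a log2 difference of -0.01 (SE 0.19, 95% interval -0.42 to 0.41). Ephb6, a receptor without kinase activity, had one of 0.13 (SE 0.09, 95% interval -0.08 to 0.34).

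The promoters of Ephb3 and Efnb2 are shown because they are the EphB receptor whose call depended on the fit and one of the ephrin-B ligands, with Efnb1, that the study places near elements with MEIS2 motifs. Each is the 250 bases before the gene's start in RefSeq annotation of GRCm38.p6, written on the gene's own strand. Capitals mark TGACAG or its reverse CTGTCA, letters bound by MEIS and related homeodomain proteins.
Ephb3, chr16:21204545-21204794, plus strand: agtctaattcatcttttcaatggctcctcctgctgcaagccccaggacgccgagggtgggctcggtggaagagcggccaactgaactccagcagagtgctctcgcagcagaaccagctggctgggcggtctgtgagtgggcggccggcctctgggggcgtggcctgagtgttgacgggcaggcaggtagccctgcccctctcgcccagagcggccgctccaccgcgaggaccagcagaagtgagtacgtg
Efnb2, chr8:8661243-8661492, minus strand: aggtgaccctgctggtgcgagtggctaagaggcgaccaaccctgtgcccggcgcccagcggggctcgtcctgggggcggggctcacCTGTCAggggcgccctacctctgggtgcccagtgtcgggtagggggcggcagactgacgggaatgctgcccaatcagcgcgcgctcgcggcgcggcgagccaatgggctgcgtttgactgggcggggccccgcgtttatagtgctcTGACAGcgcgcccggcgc
The Efnb2 window held 2 matches, starting 164 and 18 bases before the start, and the Ephb3 window held 0. Promoter windows of 300 bases (250 before to 50 after the start) were found for 32 of the 37 genes, 37 windows in all. TGACAG on either strand occurred in 5 of them (13.5%, in Efna3, Efnb2, Ntn4 and Robo2, and not in Efnb1) and in 19.2% of 32851 windows of all genes. TAATTA, bound by many homeodomain proteins, occurred in 3 (8.11%, in Efna1, Epha5 and Robo3) against 5.29%. CAAGTG, bound by NK2 homeodomain proteins, occurred in 3 (8.11%, in Efna3, Epha6 and Ephb6) against 13.6%. The E-box CANNTG, which takes in CAAGTG, occurred in 16 (43.2%) against 72.3%. The median GC content was 65.0% in the guidance gene windows and 52.7% in all windows. A match of letters is a description of the window and does not show binding. The windows were set by the gene's start, and whether they overlap the study's elements was not examined.

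The ephrin-B ligands, which are the partners of these receptors, had higher means in 2 of 3 cases. Efnb1 had log2 signals of 3.87, 3.91, 3.68 and 3.82 in WT and 4.17, 3.86, 4.32 and 4.20 in the Nkx2-1cKO. Only mutant replicate 2 lay within the WT range. This gave a log2 difference of 0.32 (SE 0.11, 95% interval 0.08 to 0.55, limma adjusted p = 0.379), with 0.25 on slide 1 and 0.38 on slide 2.

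Efnb2, whose protein also marks arterial endothelium, was measured by 2 probes. On the brighter probe the spot of WT replicate 1 was an outlier in the scanner output and was left out of the fit, and the other WT arrays were 2.81, 2.83 and 2.91. The mutant arrays were 3.14, 3.01, 3.41 and 3.12, all above those 3 WT arrays (p = 0.0571 by exact permutation, two-sided). The fitted log2 difference was 0.32 (SE 0.10, limma adjusted p = 0.389), and 0.11 after normexp background correction. The other probe, measured on all 8 arrays, gave 0.48 (SE 0.14, limma adjusted p = 0.269), and there mutant replicate 2 at -1.40 lay below WT replicate 1 at -1.35.

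Efnb3, a midline repellent for EphB- and EphA4-bearing axons, had a log2 difference in the other direction of -0.22 (SE 0.10, 95% interval -0.46 to 0.01). Its WT arrays spanned 4.18 to 4.51 and its mutant arrays 3.87 to 4.25, with 3 of the 4 mutant arrays below the lowest WT array.

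**Figure D2:**
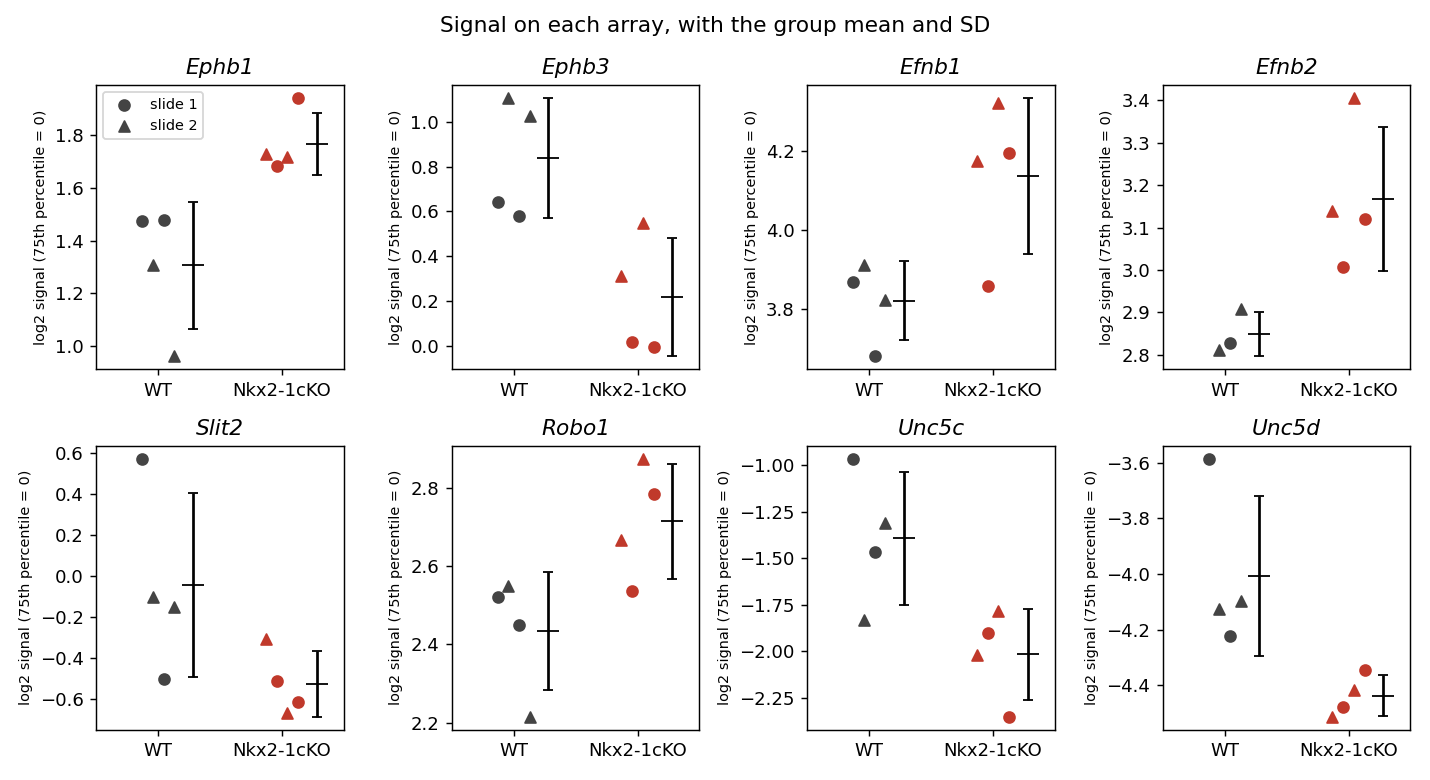
Log2 signal on each array for 8 guidance genes, relative to the 75th percentile of the array, with a separate vertical scale for each gene. Grey symbols are WT and red symbols Nkx2-1cKO, circles are slide 1 and triangles slide 2, and the bar beside each group is the mean and SD. The groups are apart for Ephb1, Ephb3, Efnb2 (3 WT arrays) and Unc5d, and in Ephb3 the slide 1 arrays sit below the slide 2 arrays in both groups.

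Among the A-class receptors, 7 of 8 tested had lower means in the mutants (median log2 difference -0.18), against 50.4% of all genes. None had an unadjusted p under 0.05 in limma on its brightest probe. The sign reversed for Epha1, Epha8 and Epha10 after normexp background correction, and for Epha4 and Epha8 after centring on the median. Epha5, a receptor best known in topographic mapping, was measured by 2 probes. The brighter gave log2 signals of 1.99, 2.34, 2.31 and 2.27 in WT and 1.79, 2.10, 2.06 and 2.06 in the Nkx2-1cKO, a log2 difference of -0.22 (SE 0.11, adjusted p = 0.599). WT replicate 1 lay among the mutant arrays and mutant replicate 1 below all others. The dimmer probe gave -1.74, -1.997, -1.87 and -1.94 in WT and -2.76, -2.48, -2.36 and -2.20 in the Nkx2-1cKO. There the groups did not overlap, with a log2 difference of -0.57 (SE 0.13, limma unadjusted p = 0.0019, adjusted p = 0.119), and over all probes 4.12% were apart on the lower side.

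Epha4, which binds ephrins of both classes and serves in the repulsion of cortical and spinal axons, had a log2 difference of -0.07 (SE 0.12) on its brighter probe and -0.11 (SE 0.12) on the other. The interval of the brighter probe, -0.33 to 0.19, left out changes of 0.5 either way. Epha3 had a log2 difference of -0.14 (SE 0.13) and -0.02 (SE 0.14) on its 2 probes, and Epha7 one of -0.25 (SE 0.13) and -0.06 (SE 0.13). These receptors are used in retinal and cortical mapping. For each of Epha3, Epha4 and Epha7 the groups overlapped on both probes.

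Epha2, a receptor common in epithelia and early embryonic tissue, was the A-class receptor with a higher mean, with a log2 difference of 0.25 (SE 0.15, 95% interval -0.08 to 0.59). Epha8 had one of -0.00 (SE 0.16). Some dim receptors carried less information. Epha10, which lacks kinase activity, had log2 signals of -5.18, -5.59, -5.67 and -5.63 in WT and -5.96, -6.14, -5.89 and -5.98 in the Nkx2-1cKO, so the groups did not overlap. Its log2 difference was -0.48 (SE 0.23, adjusted p = 0.608), or -0.36 without WT replicate 1, the array that stood apart at the dim end, and 0.62 after normexp background correction.

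Epha1, the first receptor of the family to be named, had the widest spread. WT replicate 1 was at -4.27 and the other WT arrays between -6.19 and -5.68, with the mutant arrays between -6.59 and -5.89. The log2 difference of -0.71 (SE 0.43, 95% interval -1.69 to 0.26) was -0.28 without WT replicate 1. The probe of Epha6 stood well above background on 2 of the WT arrays and on 0 of the mutant arrays, with log2 signals of -7.33 to -6.66 in WT and -8.62 to -7.29 in the mutants, so no fold change is given.

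The ephrin-A ligands differed least of the Eph and ephrin families, with log2 differences from -0.16 to 0.10 in the 4 tested. Efna1, which is also induced in endothelium by inflammatory signals, had mutant arrays packed between -2.51 and -2.47 and WT arrays between -2.46 and -2.10. The groups did not overlap, yet the log2 difference was -0.16 (SE 0.11, adjusted p = 0.667) and the gap between the nearest arrays was small beside the WT spread. Efna5, a repellent in topographic maps and in the ganglionic eminences, had a log2 difference of 0.10 (SE 0.11) on its brighter probe and 0.07 (SE 0.23) on the other. Efna2 and Efna4 had log2 differences of -0.02 (SE 0.15) and 0.01 (SE 0.14).

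All 3 Slit ligands had lower means in the mutants. Slit2 had log2 signals of 0.57, -0.11, -0.50 and -0.15 in WT and -0.31, -0.51, -0.67 and -0.62 in the Nkx2-1cKO. WT replicate 3 lay among the mutant arrays and WT replicate 1 far above the others. On the log2 scale the means differed by -0.48 (SE 0.20, 95% interval -0.93 to -0.03, limma adjusted p = 0.541) and was -0.27 without WT replicate 1. The other Slit2 probe gave -0.53 (SE 0.19, adjusted p = 0.415), with groups that also overlapped. Slit1, expressed in the germinal zones of the eminences, had a log2 difference of -0.08 (SE 0.10), and Slit3 one of -0.11 (SE 0.16).

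Of the Robo receptors, Robo1, through which interneurons and thalamic axons respond to Slits, had the largest difference on the brightest probes. Its log2 signals were 2.52, 2.55, 2.45 and 2.21 in WT and 2.67, 2.54, 2.87 and 2.78 in the Nkx2-1cKO, with mutant replicate 2 inside the WT range. The log2 difference was 0.28 (SE 0.10, 95% interval 0.05 to 0.51, limma adjusted p = 0.462). Robo2, which acts with Robo1 in axon tracts, had a log2 difference of -0.16 (SE 0.10) on its brighter probe and -0.33 (SE 0.22) on the other, with overlapping groups on both. Robo4, found mainly in endothelium, had one of -0.00 (SE 0.12, 95% interval -0.28 to 0.27), beside an endothelial marker list whose median log2 difference was 0.01 and whose summed linear level spanned 10.1 to 13.8 in WT and 10.8 to 13.2 in the mutants.

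Both netrins of the list, Ntn1 and Ntn4, had higher means. Ntn3, a netrin listed with the further signalling genes below, went the other way. Its log2 difference was -0.42 (SE 0.13, limma adjusted p = 0.293), and its groups did not overlap. Ntn1, the secreted cue that attracts DCC-bearing axons, had log2 signals of -0.88, -1.54, -1.32 and -1.04 in WT and -0.66, -0.83, -1.09 and -0.71 in the Nkx2-1cKO. WT replicates 1 and 4 lay within the mutant range. Limma gave a log2 difference of 0.37 (SE 0.16, 95% interval 0.02 to 0.73, adjusted p = 0.553), and the dimmer probe gave 0.14 (SE 0.24). Ntn4, a netrin of basement membranes, had a log2 difference of 0.46 (SE 0.25, adjusted p = 0.630), with 0.03 on slide 1 and 0.89 on slide 2, and 0.20 without mutant replicate 3. That array was at -2.16 and the other mutant arrays between -3.32 and -3.14.

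The attractive netrin receptors had lower means. Dcc had log2 signals of 0.58, -0.09, -0.03 and -0.47 in WT and -0.29, -0.36, -0.45 and -0.18 in the Nkx2-1cKO. The mutant arrays lay inside the WT range. This gave a log2 difference of -0.32 (SE 0.19, 95% interval -0.75 to 0.11) and -0.13 without WT replicate 1. Neo1, the neogenin receptor shared by netrins and repulsive guidance molecules, had a log2 difference of -0.12 (SE 0.09) on its brighter probe and -0.23 (SE 0.11) on the other.

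The Unc5 receptors, which turn the response to netrin into repulsion, were divided, with higher means for Unc5a and Unc5b and lower means for Unc5c and Unc5d. Unc5c had log2 signals of -0.96, -1.83, -1.47 and -1.31 in WT and -2.02, -1.90, -1.79 and -2.35 in the Nkx2-1cKO. WT replicate 2 lay just inside the mutant range and the other WT arrays above it. The log2 difference was -0.62 (SE 0.19, 95% interval -1.05 to -0.20, limma adjusted p = 0.301), with -0.91 on slide 1 and -0.33 on slide 2. After normexp background correction it was -0.33.

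Unc5d had log2 signals of -3.58, -4.12, -4.22 and -4.10 in WT and -4.51, -4.48, -4.42 and -4.35 in the Nkx2-1cKO. The mutant arrays all lay below the WT arrays, with a log2 difference of -0.43 (SE 0.17, 95% interval -0.82 to -0.04, limma adjusted p = 0.524). A second, dimmer probe gave -0.68 (SE 0.28, limma adjusted p = 0.528), with 1 overlapping mutant array. The brighter probe gave -0.29 without WT replicate 1 and 0.34 after normexp background correction. Unc5a had a log2 difference of 0.27 (SE 0.12, 95% interval 0.00 to 0.53, limma adjusted p = 0.576), with 2 mutant arrays above the highest WT array. Unc5b, which is also found in vessels, had one of 0.20 (SE 0.16).

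**Figure D3:**
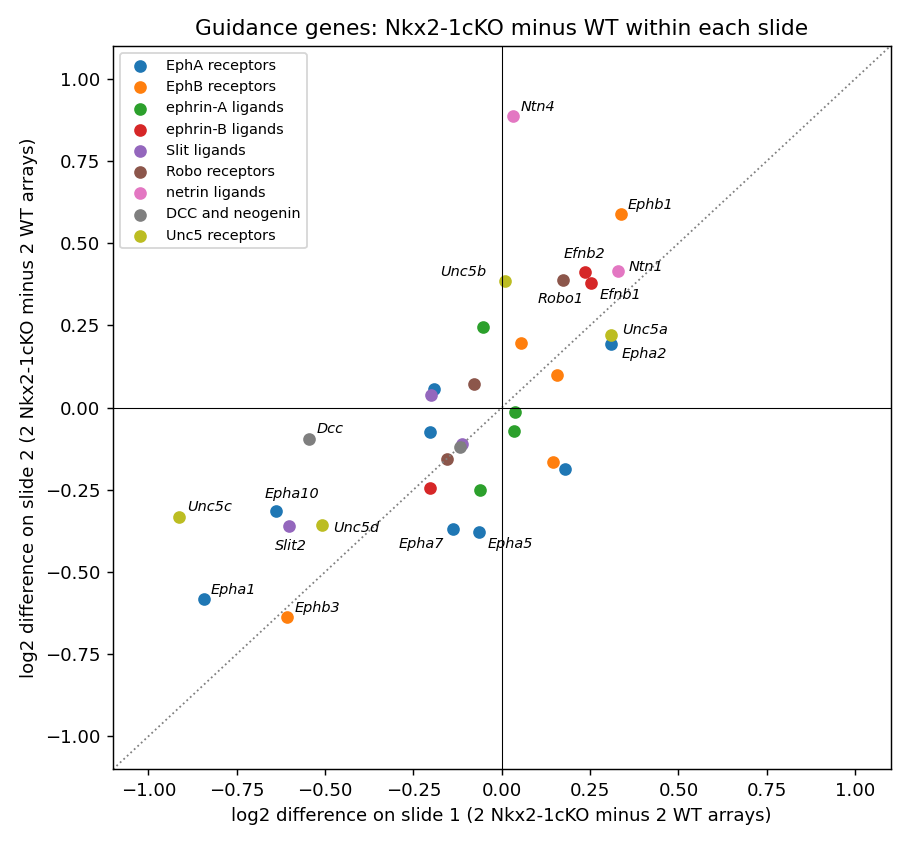
Each point is 1 of the 34 tested guidance genes, coloured by family, with the log2 difference on slide 1 (2 Nkx2-1cKO minus 2 WT arrays) on the horizontal axis and that on slide 2 on the vertical axis. The dotted line marks equal differences and genes beyond 0.3 on either slide are named. Ephb3 lies near the line, Ntn4 lies far above it, and 26 of the 34 genes have the same sign on both slides.

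Ligands and receptors that bind each other can be set side by side from these values. In the B class the means of 2 of 3 ligands (Efnb1 and Efnb2) and of 3 of 5 receptors were higher in the Nkx2-1cKO. Of its 8 genes 4 had an unadjusted p under 0.05 in limma, against 9.51% of all genes. In the A class 9 of 12 means were lower, against 50.4% of all genes. On the brightest probe 0 of the 12 had an unadjusted p under 0.05 in limma, against 9.51% of all genes. Ntn1 and Ntn4 had higher means, Ntn3 a lower mean, and both attractive receptors lower means. No difference between classes was tested. Genes of one class share their arrays and are not replicates of the condition.

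Beyond the guidance genes, 49 others that take part in these signals were listed and 43 were tested. They include further ligands such as the netrin Ntn3. Only Flrt2 passed the threshold, and none of the 43 was called lower, while 7 (16.3%) had an unadjusted p under 0.05. Over all genes 1.34% were called and 9.51% had an unadjusted p under 0.05. FLRT2 is a membrane protein that binds Unc5 receptors and can repel neurons that carry Unc5d. Its log2 signals were -1.64, -1.51, -1.80 and -1.43 in WT and -0.88, -0.97, -0.91 and -0.85 in the Nkx2-1cKO. All 4 mutant arrays were above all 4 WT arrays, and the transcript rose by 0.69 on the log2 scale (SE 0.10, 95% interval 0.46 to 0.92, limma adjusted p = 0.0107), or 1.62-fold. Within slide 1 the groups differed by 0.81 and within slide 2 by 0.58. Flrt2 did not pass the threshold after normexp background correction (log2 difference 0.74, limma adjusted p = 0.112) or with replicate number as a block (adjusted p = 0.144), and it passed in the other 14 alternatives. The median log2 difference over the 43 genes was -0.04.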

How the data were processed

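Transcript levels were measured in 4 WT and 4 Nkx2-1cKO MGE samples on single-colour Agilent arrays. The authors deposited scanner output in which each spot has an intensity that is corrected for background inside its own array and is not scaled to the other arrays. The submitters' processing notes name Feature Extraction 10.1 and the file headers name version 10.7.3.1. Later steps are not given in the sources used here. No spot was saturated.

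Control spots and outlier spots were dropped. The deposited intensity was put on the log2 scale, the array's 75th percentile was subtracted and spots sharing a probe were averaged. Accessions linked 24844 of the 41174 probes to a RefSeq symbol (GRCm38.p6). Testing was limited to 31283 probes that were well above background on 4 or more arrays, with 53 missing values. They were fitted together in limma 3.58.1 (R 4.3.3, lmFit, then eBayes with trend), and p-values were adjusted by Benjamini-Hochberg across the 31283. Where a gene had several tested probes, as 12 guidance genes did, its brightest stands for it. Intervals at 95% were built from limma's standard errors and degrees of freedom, with t quantiles from SciPy 1.17.1. Exact permutation tests on the difference of means went through every split of the arrays in Python 3.11.15. Simulated data served to test the code. Precision is limited by the number of arrays.

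Every member is named, with Nkx2-1, the listed partners that passed the threshold, and Ntn3 as a further netrin. The members, lists and motifs were chosen with earlier results of these data known. Chromatin, reporter and deletion experiments of the study were not analysed here. Deviations from the group means were negatively correlated between arrays that share a replicate number (-0.481 to -0.194). Those arrays lay on different slides, so the correlations cannot show whether the numbers pair samples. No pairing was assumed in the main fit. Other settings were quantile normalization, median centring, normexp on the median signal (offset 50), all probes without a filter, a block for slide, a block for replicate number, eBayes without trend, averaging a gene's probes (missing where any of them was), and dropping 1 array at a time.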

Additional observations from a re-analysis of the deposited data

Results flagged for a closer look

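In 4 of 67 groups of 4 arrays (34 genes in WT and in the Nkx2-1cKO, without the 3 WT arrays of Efnb2) the highest or lowest array lay farther from the rest than Dixon's 95% critical value allows. Chance gives about 1 in 20, or 3.35 of 67. For Epha5 the lowest was Nkx2-1cKO replicate 1 at 1.79, with the other mutant arrays between 2.06 and 2.10. For Epha10 the highest was WT replicate 1 at -5.18, with the other WT arrays between -5.67 and -5.59. For Ntn4 both groups held such an array, WT replicate 1 at -3.08 with the others between -3.54 and -3.49, and Nkx2-1cKO replicate 3 at -2.16 with the others between -3.32 and -3.14. These values are log2 signals relative to the 75th percentile of the array.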

How the results depend on the processing

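No guidance gene was called higher in any of 16 alternatives, and the only one called lower in any was Ephb3, which made the count 1 after normexp background correction and 1 with slide as a block. Over all probes, 132 were called higher and 192 lower. The higher count was 63 after normexp background correction, 209 with slide as a block and 87 without the variance trend, and the lower count was 115 after centring on the median and 90 after normexp. With replicate number as a block 8 probes were called higher and 64 lower, and it left the guidance genes at 0 in both directions. The count of pathway partners called higher, which was 1 (Flrt2), was 0 with that block and 0 after normexp. Without 1 array in turn, between 65 and 118 probes were called higher and between 130 and 174 lower.

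The direction of 21 of the 34 guidance genes was kept in every alternative. Normexp moved the median log2 difference of all probes from -0.04 to 0.20, and centring moved it to 0.08. Not corrected for these shifts, the log2 differences after normexp were 0.50 for Epha1, 0.44 for Epha8, 0.62 for Epha10, 0.20 for Ephb4, 0.18 for Efna1, 0.27 for Efna2, -0.011 for Efna4, 0.079 for Slit1, 0.36 for Slit3 and 0.34 for Unc5d, each of opposite sign to the value in the report. After centring, the reversed values were 0.052 for Epha4, 0.12 for Epha8, 0.11 for Ephb4, 0.10 for Efna2, 0.039 for Slit1, 0.0087 for Slit3, 0.12 for Robo4 and 0.00033 for Neo1. Those under quantile normalization were 0.18 for Epha8, 0.026 for Ephb4, 0.018 for Efna2 and -0.0054 for Efna4. The cause of these reversals was not tested. Leaving out 1 array at a time gave log2 differences of -0.175 to 0.00627 for Epha4, -0.139 to 0.0698 for Epha8, -0.101 to 0.124 for Ephb4, -0.126 to 0.057 for Efna2, -0.0661 to 0.113 for Efna4 and -0.103 to 0.0758 for Robo4, so these genes had no settled direction. Signal over background limits what dim probes such as those of Epha1, Epha6 and Epha10 can show.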
